A study of Homo sapiens with 12 samples.

Results

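Human endogenous retroviruses are remnants of germline infections, and a small number of their envelope genes still code for protein in the human genome. The RNA of 6 genes named after such elements or sharing a locus with one, ERV3-1, ZNF117, ERVK3-1, ERVMER34-1, ERVW-1 and ERVFRD-1, was examined in U937, a human myelomonocytic acute myeloid leukemia (AML) cell line. The members were all transcripts of these 6 gene symbols with at least 1 read in the deposited table. That rule gave 13 of 25 transcript models of the 6 symbols, among 68785 transcripts with reads of 197782 in all. The transcripts were chosen by their read counts (1 or more), and the symbols were picked with earlier results of these data known, so the treatment values below describe these genes and do not serve as independent evidence about retroviral genes as a class.

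The 12 libraries formed 4 groups of 3: untreated cells, cells given 200 nM decitabine (DAC), cells given 1 µM all-trans retinoic acid (ATRA), and cells given both agents (DAC+ATRA). DAC is a nucleoside analog that traps DNA methyltransferases and lowers DNA methylation, and ATRA is the ligand of the retinoic acid receptors. Treatment ran over 3 consecutive days with DAC renewed daily, and the study's methods add ATRA later than the first dose of DAC, so exposure to ATRA may have been the shorter. Per the labels all cells grew with 20% FCS and 5 ng/ml GM-CSF, and the label durations are 96 h for untreated and 72 h for treated cells. The study describes a single harvest at 72 h. If the labels hold, time in culture and treatment cannot be told apart. ATRA was dissolved in DMSO per the study's methods, and none of the 4 groups is labelled as given DMSO alone. If the untreated cells had none, ATRA and its solvent cannot be told apart either. Only this cell line was examined, and nothing states that the 3 libraries of a group came from separate cultures, so that p-values measure the spread between these libraries, which may be technical. Ribosomal RNA was depleted before sequencing, and between 8042435 and 10683593 reads per library (median 9874622) were assigned to transcripts. Of the myeloid markers, CD33, CD4, MPO and ITGAM had reads in all 12 libraries, whereas PTPRC and PRTN3 were at 0 in all of them. Reads were counted per transcript, and those on bases shared between transcript models may have gone uncounted. A marker at 0, here or below, therefore need not mean that its RNA was absent. The summed level of 13 myeloid markers had group means of 57798 normalized reads in untreated, 40350 in ATRA, 34004 in DAC and 24877 in DAC+ATRA libraries, most of it MPO (52578 in untreated and 15054 in DAC+ATRA libraries). Other markers of the list had higher means in DAC+ATRA than in untreated libraries, among them ITGAM (206 and 2796 in untreated and DAC+ATRA), LYZ (164 and 1097) and ITGB2 (133 and 544). Of 14 markers of other cell types (T and B cells, erythroid cells, trophoblast, epithelium, fibroblasts), 13 were in the table. Their summed level ran from 23.9 to 321 normalized reads, and HBB, CGA, PSG1 and CYP19A1 were at 0. COL1A1 made up most of that sum, at a mean of 19.0 in untreated and 238 in DAC libraries. The part of these markers in the results below was not tested, and fewer cells of a type and less RNA per cell cannot be told apart in such libraries. Values are normalized reads, that is, reads assigned to 1 transcript divided by the size factor of the library.

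As background, ERV3-1 carries an envelope reading frame of the HERV-R family. ZNF117 is a Krüppel-type zinc finger gene that lies downstream on the same strand and can be transcribed from the ERV3-1 promoter. ERVW-1 and ERVFRD-1 encode syncytin-1 and syncytin-2, which fuse trophoblast cells in the placenta, ERVMER34-1 encodes an older envelope protein, and ERVK3-1 is named for the HERV-K group and lies on chromosome 19. DNA methylation and KRAB zinc finger proteins keep most such elements silent in somatic cells.

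ERV3-1 and ZNF117 lie on the minus strand of chromosome 7 in build hg38, and their transcripts interlock, as the map of the locus shows. ERV3-1-201, the protein-coding model (ENST00000394323 of ENSG00000213462), spans chr7:64990356-65006687 with 2 exons. ERV3-1-202 (ENST00000528878, chr7:65003669-65006743) and ERV3-1-203 (ENST00000535538, chr7:65006084-65006659) share most of that first exon but end within the first intron of ERV3-1-201. ZNF117-202 (ENST00000487644 of ENSG00000152926, chr7:64979923-65006684), annotated as a retained intron, also begins in that first exon and spans the rest of ERV3-1. The protein-coding ZNF117-201 (ENST00000282869, chr7:64971772-64991036) starts instead inside the last exon of ERV3-1-201. Reads were counted per transcript, and every matched model of the 6 symbols that shared all its exonic bases with other models on its strand had 0 reads. Each value is therefore read here as coming mainly from the bases that 1 model holds alone, although the treatment of shared exons is not given in the sources used here. These bases were 2378 of 3206 exonic bases for ERV3-1-201, 1582 of 1729 for ERV3-1-202, 239 of 358 for ERV3-1-203, 3089 of 9084 for ZNF117-201 and 1464 of 1837 for ZNF117-202. All 239 bases held alone by ERV3-1-203 and 1526 of the 1582 held alone by ERV3-1-202 are intronic for ERV3-1-201, so unspliced ERV3-1 RNA would count there too. The other 56 bases of ERV3-1-202 lie upstream of the ERV3-1-201 start.

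**Figure D1:**
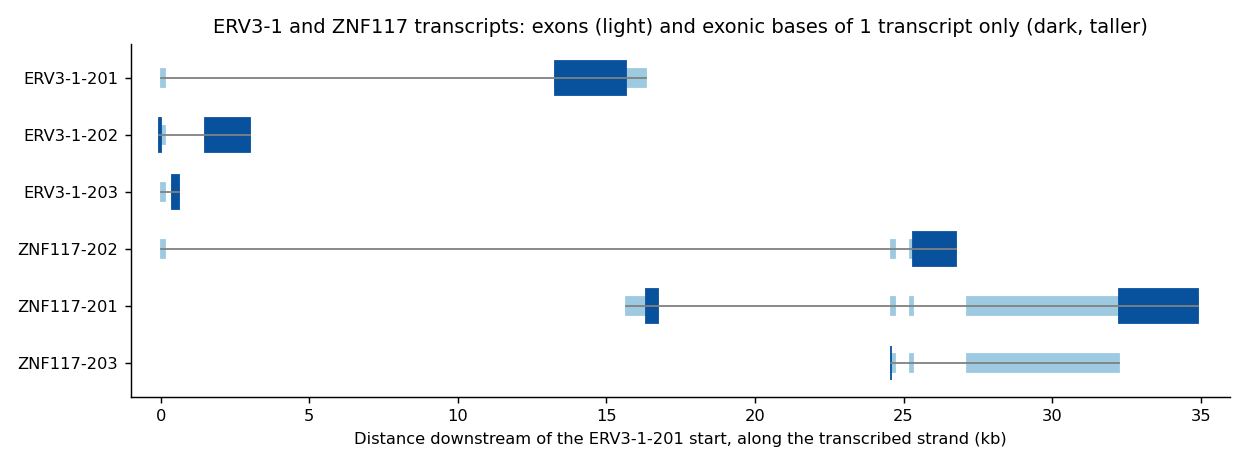
Transcript models of ERV3-1 and ZNF117 drawn to scale along the transcribed strand, with distance in kb from the ERV3-1-201 start on the x axis and 1 model per row. Light boxes are exons and dark, taller boxes are exonic bases that no other model in the table shares on that strand; 4 models share the first exon, and ZNF117-201 begins in the last exon of ERV3-1-201.

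The promoter that 4 of these models share is shown because they begin there, with that of ERVK3-1, which was called in no comparison, beside it. Both are RefSeq windows of build GRCh38.p14, from 250 bases before to 50 bases after the start, and capitals mark CpG dinucleotides, the sites of DNA methylation. The ERV3-1 window (chr7:65006638-65006937, minus strand) held 9 CpGs and the ERVK3-1 window (chr19:58305127-58305426, plus strand) held 27, against a median of 14 over 35116 promoters.
ERV3-1 promoter: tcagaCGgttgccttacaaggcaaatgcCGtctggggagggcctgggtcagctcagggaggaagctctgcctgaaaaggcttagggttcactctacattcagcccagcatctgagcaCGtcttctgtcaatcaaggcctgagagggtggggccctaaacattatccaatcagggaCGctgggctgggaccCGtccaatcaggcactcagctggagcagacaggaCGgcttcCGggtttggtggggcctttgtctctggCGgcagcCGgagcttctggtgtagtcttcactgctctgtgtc
ERVK3-1 promoter: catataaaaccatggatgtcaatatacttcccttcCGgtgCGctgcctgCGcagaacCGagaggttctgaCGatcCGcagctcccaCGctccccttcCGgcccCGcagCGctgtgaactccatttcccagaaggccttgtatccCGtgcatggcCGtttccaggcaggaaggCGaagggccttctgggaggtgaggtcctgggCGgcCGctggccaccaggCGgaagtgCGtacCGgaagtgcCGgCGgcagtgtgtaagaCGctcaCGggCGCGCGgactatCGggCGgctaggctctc
At least as many CpGs as in the ERVK3-1 window were found in 28.2% of all promoters, and at least as many as in the ERV3-1 window in 58.4%. The observed over expected CpG ratio was 0.356 for ERV3-1 and 0.888 for ERVK3-1. The window of ZNF117 held 2 CpGs, below the lower quartile of 4, and those of ERVW-1 (5) and ERVMER34-1 (24) lay, like both shown, between the quartiles of 4 and 28. No promoter entry was given for ERVFRD-1.

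A second RefSeq start of ERV3-1 (chr7:64999393-64999692, minus strand) lies within the first intron and is shown for its nuclear receptor half-sites, because one of the agents is a retinoid. Capitals mark the hexamers AGGTCA and GGGTCA on either strand, and AGTTCA as well as GGTTCA were also searched for on both strands, which makes 4 hexamers in all.
ERV3-1 second start: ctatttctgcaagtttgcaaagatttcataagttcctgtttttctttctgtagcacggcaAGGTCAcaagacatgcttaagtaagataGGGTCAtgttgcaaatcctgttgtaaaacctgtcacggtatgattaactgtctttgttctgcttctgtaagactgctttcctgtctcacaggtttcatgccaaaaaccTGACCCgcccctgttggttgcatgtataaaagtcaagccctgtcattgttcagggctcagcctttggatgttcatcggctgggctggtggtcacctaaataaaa
It held 3 such hexamers, with first bases at positions -190, -162 and -54 from the start. The shared ERV3-1 promoter held 2, GGGTCA at -206 and GGTTCA at -166. The ZNF117 window also held 2 and that of ERVK3-1 held 1, AGTTCA at -137 on the opposite strand, while those of ERVW-1 and ERVMER34-1 held 0. At least 1 of the 4 hexamers occurred in 38.6% of all promoters, and a match of letters is a description only.

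The study also designed quantitative PCR primers for both genes, and these show which RNA such an assay would read. Each matched hg38 exactly once.
ERV3-1 forward: aactaatgccccaagataatttca
ERV3-1 reverse: ttaagaaccagatgctctgacttg
ZNF117 forward: tccagaaagtgaccctaagaaga
ZNF117 reverse: tgctgtttacactcaaccaca
The ERV3-1 pair (chr7:64992018-64992098) gave an 81-base product from ERV3-1-201 alone, inside the stretch that the read count of this model rests on. ERV3-1-202 and ERV3-1-203 held neither primer. The ZNF117 pair (chr7:64979386-64979479) gave a 94-base product from ZNF117-201 and ZNF117-203, in an exon that both models share.

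Of the 13 transcripts with reads, 8 had at least 10 normalized reads in at least 3 libraries and could be tested: 3 of ERV3-1, 2 of ZNF117 and 3 of ERVK3-1. ERV3-1-202 and ERV3-1-203 passed through the DAC and DAC+ATRA libraries alone, and so had to differ between groups. The 3 protein-coding ones were tested with limma among 9016 protein-coding transcripts and the other 5 among 19373 transcripts of any biotype, with Benjamini-Hochberg adjustment within each comparison and a call at an adjusted p under 0.01. Fold changes are on the scale of log2(normalized reads + 1), which understates the change of low transcripts. The median of all protein-coding transcripts lay at 0.22 with DAC and 0.20 with DAC+ATRA on this scale, and at 0.02 and 0.06 with TMM scaling in edgeR, so that part of each difference with DAC rests on the scaling. At this threshold, 2 of 3 protein-coding members were higher with DAC, against a background of 30.6% of all protein-coding transcripts. With ATRA the same count was 2 of 3 against 6.47%, and with DAC+ATRA 2 of 3 against 32.6%. Adding ATRA to DAC raised 2 of 3 against 6.08%, and adding DAC to ATRA raised 2 of 3 against 25.9%. The 2 were ERV3-1-201 and ZNF117-201 in each case.

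ERV3-1-201, which holds the envelope reading frame, was the most abundant member. It stood at 1040, 918 and 967 normalized reads in the untreated libraries, at 3578, 4230 and 4069 with DAC, at 2623, 2450 and 2828 with ATRA, and at 5462, 5657 and 5803 with DAC+ATRA. The 4 groups did not overlap, in the order untreated, ATRA, DAC, DAC+ATRA. Over all protein-coding transcripts, the higher group lay wholly above the untreated libraries in 14.8% for ATRA, 41.9% for DAC and 42.8% for DAC+ATRA. The share was 15.5% for DAC+ATRA above DAC, 35.7% for DAC+ATRA above ATRA and 34.6% for DAC above ATRA. Against untreated cells it rose by 2.02 ± 0.09 (log2 fold change ± SE, n = 3 per group) with DAC (limma, adjusted p = 2.97e-13), by 1.43 ± 0.09 with ATRA (adjusted p = 3.12e-10) and by 2.53 ± 0.09 with DAC+ATRA (adjusted p = 4.53e-15). ATRA on top of DAC added 0.51 ± 0.09 (adjusted p = 0.000426), and DAC on top of ATRA added 1.10 ± 0.09 (adjusted p = 4.44e-09). The fitted values correspond to 4.05-fold of untreated with DAC, 2.70-fold with ATRA and 5.78-fold with both, around an untreated mean of 975 ± 61.4 (SD, n = 3).

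ZNF117-201, the zinc finger gene's coding transcript, followed the same order at a lower level. It had 164, 154 and 142 normalized reads in untreated libraries, 568, 706 and 633 with DAC, 431, 334 and 434 with ATRA, and 980, 977 and 959 with DAC+ATRA. Again no 2 groups overlapped. Its log2 fold changes were 2.04 ± 0.12 with DAC (limma, adjusted p = 1.33e-11), 1.37 ± 0.12 with ATRA (adjusted p = 3.39e-08) and 2.66 ± 0.12 with DAC+ATRA (adjusted p = 1.47e-13). ATRA on top of DAC added 0.62 ± 0.12 (adjusted p = 0.000849). Per kb of bases held alone, untreated cells had 410 ± 25.8 normalized reads of ERV3-1-201 and 49.6 ± 3.46 of ZNF117-201 (mean ± SD, n = 3), and DAC+ATRA cells had 2372 ± 71.9 and 315 ± 3.67.

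**Figure D2:**
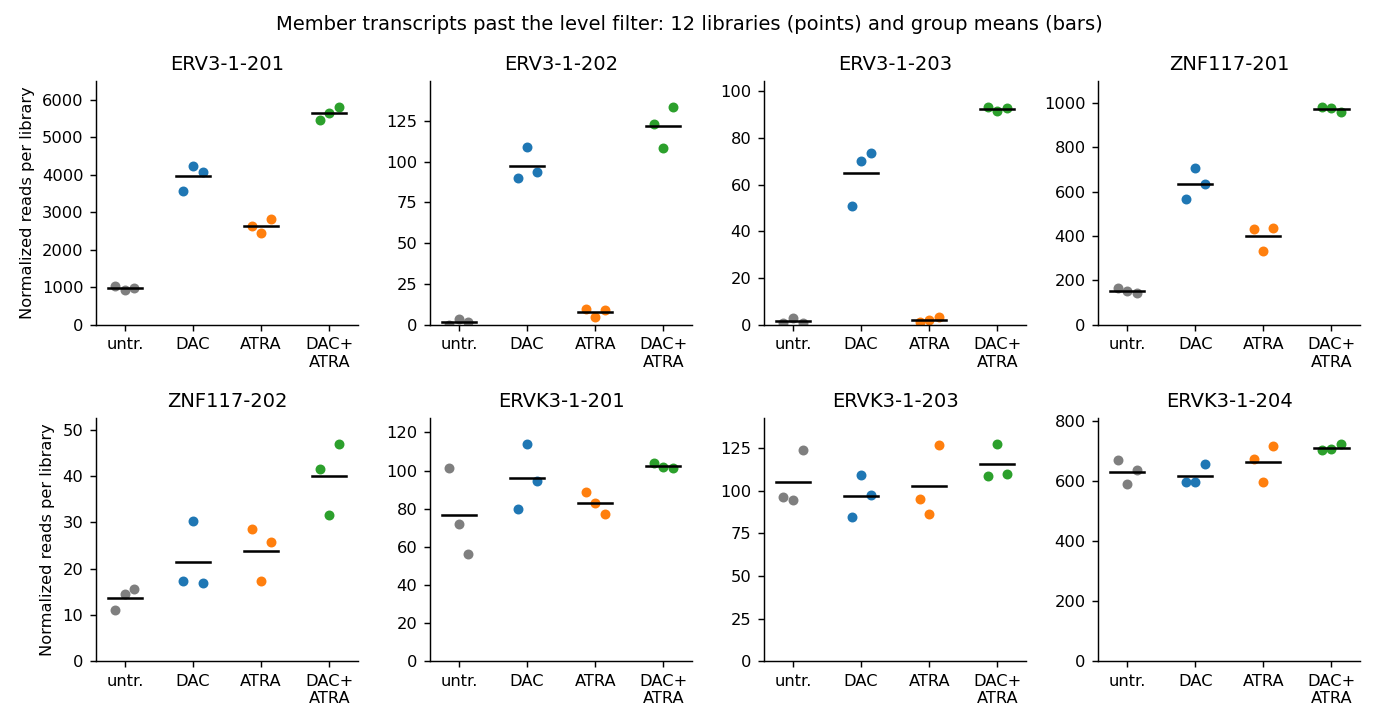
Normalized reads (y axis, linear from 0, a scale for each panel) of the 8 member transcripts past the level filter in the 4 groups, with a point per library and a bar at the mean of 3 libraries. ERV3-1-201 and ZNF117-201 climb from untreated through ATRA and DAC to DAC+ATRA, ERV3-1-202 and ERV3-1-203 are high only with DAC and DAC+ATRA in these libraries, and the 3 ERVK3-1 transcripts keep similar levels.

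The 2 transcripts kept a nearly fixed proportion while both changed several-fold. ZNF117-201 amounted to 15.7% ± 1.02 of ERV3-1-201 (mean ± SD, n = 3) in untreated libraries, 15.1% ± 1.41 in ATRA, 16.04% ± 0.59 in DAC and 17.2% ± 0.71 in DAC+ATRA libraries. All 12 libraries lay between 13.6% and 17.9%. The DAC+ATRA libraries lay above the ATRA libraries without overlap (exact two-sided permutation test of 3 against 3, p = 0.1, the smallest this design allows), and the other pairs of groups overlapped. Among 7621 other gene symbols tested, the one most alike to ERV3-1-201 over the 12 libraries was ZNF117 (Pearson r = 0.996 of log2 values), followed by DLC1 (0.994), CNR2 (0.993), F2RL3 (0.992) and C5AR2 (0.991). For ZNF117-201 the list was ERV3-1, CNR2, F2RL3, SLAMF1 and SH2D1B. These correlations are descriptions over 12 libraries that fall into 4 groups. ERVK3-1-201 ranked 2655 in likeness to ERV3-1-201 (r = 0.666).

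How the agents combined depended on the scale. On the log2 scale the effect of ATRA on ERV3-1-201 was smaller in the presence of DAC than in its absence, with a difference of -0.92 ± 0.13 (limma interaction, adjusted p = 0.000166), and a lower-than-multiplicative interaction of this kind was called for 1.67% of protein-coding transcripts. The corresponding value of ZNF117-201 was -0.75 ± 0.17, which missed the threshold (adjusted p = 0.0110). On the linear scale, the rise of 2984 normalized reads with DAC and of 1658 with ATRA summed to 4642, next to a rise of 4666 with both. The excess of ERV3-1-201 over the sum was 23.7 ± 248 (SE from the spread within groups), and leaving out single libraries moved it from -167 (without DAC library 4) to 159 (without DAC library 5). For ZNF117-201 the rises of 483 and 247 summed to 729 next to 819 with both, an excess of 89.6 ± 52.6. Its excess ran from 55.5 (without DAC library 4) to 125 (without DAC library 5). For ERV3-1-203 the excess was 27.0 ± 7.18 on a rise of 90.9 with both agents, and ATRA alone gave 0.544. That excess ran from 20.0 (without DAC library 4) to 31.4 (without DAC library 6). It was 18.2 ± 9.56 for ERV3-1-202 (12.3 without DAC+ATRA library 12 to 24.8 without DAC+ATRA library 11) and 8.46 ± 7.26 for ZNF117-202 (5.00 without DAC+ATRA library 12 to 12.8 without DAC library 5).

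**Figure D3:**
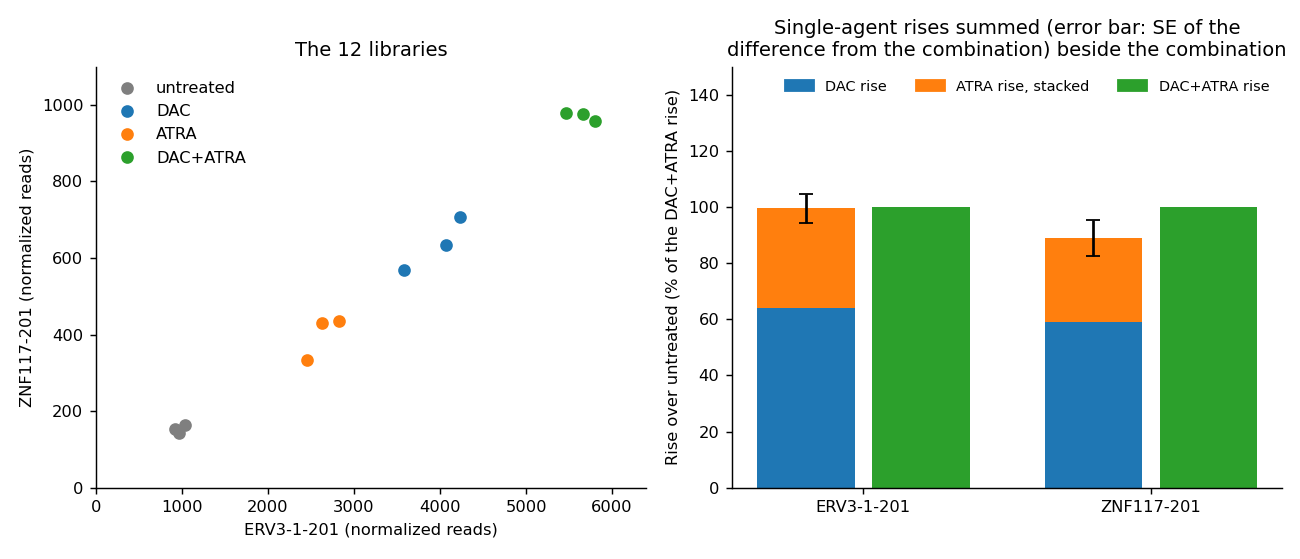
Left, ZNF117-201 against ERV3-1-201 in normalized reads, a point per library; the 12 points lie close to a line through the origin, in 4 separate groups. Right, the rise over untreated with DAC and, stacked on it, with ATRA, as percent of the rise with DAC+ATRA (green, 100%); the error bar is the SE of the difference between sum and combination, and the sum falls short of the combination by 0.508% for ERV3-1-201 and by 10.9% for ZNF117-201.

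The 2 short ERV3-1 models, which end in the first intron, had most of their reads in the 2 groups given DAC. ERV3-1-202 had 0, 3.64 and 1.85 normalized reads in untreated libraries, 89.7, 109 and 93.6 with DAC, 9.50, 4.55 and 9.16 with ATRA, and 123, 108 and 133 with DAC+ATRA. The ATRA libraries lay just above the untreated ones and far below both DAC groups. ERV3-1-203 had 0.92, 2.73 and 0.92 in untreated, 50.8, 70.1 and 73.7 with DAC, 1.06, 1.82 and 3.33 with ATRA, and 93.1, 91.6 and 92.7 with DAC+ATRA. Untreated and ATRA libraries overlapped for this model.

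Since both models entered through the groups given DAC, their differences between groups with and without DAC are given as values, with no test. The log2 fold changes with DAC were 5.38 ± 0.39 for ERV3-1-202 and 4.76 ± 0.34 for ERV3-1-203, and with DAC+ATRA 5.69 ± 0.39 and 5.29 ± 0.34. With ATRA alone ERV3-1-202 was higher by 1.83 ± 0.39 (limma, adjusted p = 0.00266), a call that rests on 25 reads against 6. It missed the threshold by edgeR (adjusted p = 0.0191) and by DESeq2 (adjusted p = 0.0295), and in limma without ATRA library 7 (adjusted p = 0.0229) or ATRA library 9 (adjusted p = 0.02), and its value was 1.21 without untreated library 1. ERV3-1-203 differed by 0.29 ± 0.34 with ATRA (95% interval -0.41 to 0.99, adjusted p = 0.692). Among the 5 members of other biotypes, 2 were higher with DAC (background 22.2% of 19373 transcripts), 1 with ATRA (5.11%) and 3 with DAC+ATRA (25.5%), ZNF117-202 being the third. The 2 with DAC, the other 2 with DAC+ATRA and the 2 higher with DAC+ATRA than with ATRA (19.1%) were ERV3-1-202 and ERV3-1-203, so the filter decided these counts and nothing is read from them. Between DAC+ATRA and DAC 0 of the 5 were called by limma, edgeR or DESeq2 (1 at an unadjusted p under 0.05, background 5.18%). In counts summed over 3 libraries and scaled by size factors, DAC over untreated was 53.3 for ERV3-1-202 (289 reads against 6). It was 42.7 for ERV3-1-203 (193 against 5), and such low counts leave both ratios imprecise. The ratio of DAC over ATRA was 12.7 and 30.3.

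Relative to ERV3-1-201, the short models made up a larger share wherever DAC was present. ERV3-1-202 was 0.196% ± 0.198 of ERV3-1-201 (mean ± SD, n = 3) in untreated and 0.291% ± 0.0928 in ATRA libraries, but 2.46% ± 0.14 with DAC and 2.16% ± 0.21 with DAC+ATRA. ERV3-1-203 went from 0.160% ± 0.119 and 0.0774% ± 0.0388 to 1.63% ± 0.20 and 1.64% ± 0.06 in the same order. For both ratios every DAC and DAC+ATRA library lay above every untreated and ATRA library, which is a description, since both models were tested only because of their reads with DAC. A test of each transcript against the other transcripts of its gene (limma diffSplice over 10499 transcripts, chosen after the values were seen) called 0 of the 3 with ATRA alone (background 0.19%), with 2 of 3 at an unadjusted p under 0.05 and adjusted p from 0.247 to 0.958.

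ZNF117-202, which begins in the ERV3-1 first exon and keeps an intron of ZNF117, was rare. It had 11.03, 14.6 and 15.7 normalized reads in untreated libraries, 17.3, 30.2 and 16.9 with DAC, 28.5, 17.3 and 25.8 with ATRA, and 41.6, 31.6 and 47.0 with DAC+ATRA. Its difference from untreated passed the threshold with DAC+ATRA (1.47 ± 0.28, limma, adjusted p = 8.67e-05) and missed it with DAC (0.57 ± 0.28, adjusted p = 0.0983) and ATRA (0.74 ± 0.28, adjusted p = 0.0968). As a share of ZNF117-201 it stood at 9.08% ± 2.17 in untreated cells and at 3.33% ± 0.84, 5.91% ± 0.72 and 4.12% ± 0.84 with DAC, ATRA and DAC+ATRA, each treated group lying below the untreated one without overlap (p = 0.1 for each, from exact permutation, two-sided, which 3 against 3 cannot go below). In the test of transcripts within a gene the divergence of ZNF117-201 from ZNF117-202 was 1.47 with DAC (adjusted p = 0.00316, background 5.93%), 0.63 with ATRA (adjusted p = 0.639) and 1.19 with DAC+ATRA (adjusted p = 0.0120, background 7.7%).

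**Figure D4:**
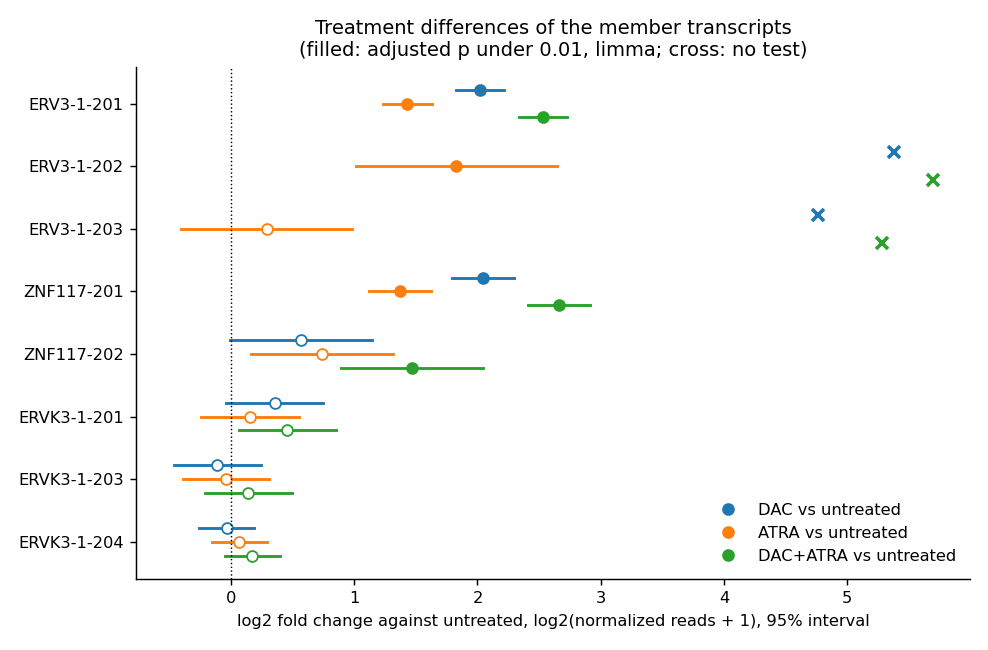
Log2 fold change against untreated (x axis, log2 of normalized reads + 1) of the 8 member transcripts (rows) with DAC, ATRA and DAC+ATRA; bars are 95% intervals from limma and filled points have an adjusted p under 0.01 and crosses are values with no test. The short ERV3-1 models lie at 4.76 to 5.69 with DAC and DAC+ATRA, values that the filter required to be high, ERV3-1-201 and ZNF117-201 between 1.37 and 2.66, and the ERVK3-1 transcripts near 0.

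ERVK3-1 had reads in every library and was called in no comparison. Its longest retained-intron model ERVK3-1-204 (ENST00000590505, chr19:58309030-58315203, plus strand) had a mean of 631 ± 40.3 normalized reads in untreated libraries, 662 ± 61.1 in ATRA, 615 ± 34.1 in DAC and 711 ± 10.8 in DAC+ATRA libraries (mean ± SD, n = 3). Its libraries read 668, 588 and 635 in untreated, 595, 596 and 654 with DAC, 674, 595 and 716 with ATRA, and 703, 705 and 723 with DAC+ATRA, with the DAC+ATRA libraries above the untreated and DAC libraries without overlap. The shorter retained-intron model ERVK3-1-203 (ENST00000434052, chr19:58305377-58306634) had 96.5, 94.7 and 124 normalized reads in untreated libraries, 84.3, 109 and 97.6 with DAC, 95.04, 86.5 and 127 with ATRA, and 108, 127 and 110 with DAC+ATRA, and all groups overlapped. The protein-coding ERVK3-1-201 (ENST00000413518, chr19:58305377-58316812) had 101, 71.9 and 56.3 normalized reads in the untreated libraries, 80.0, 114 and 94.6 with DAC, 88.7, 82.8 and 77.4 with ATRA, and 104, 102 and 101 with DAC+ATRA. The DAC+ATRA libraries of this model lay at or above 101, over the ATRA libraries without overlap and, by a narrow margin, over all untreated ones.

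In limma 0 of the 3 ERVK3-1 transcripts passed the threshold in any of the 6 comparisons, and by edgeR and DESeq2 the count was also 0. Over all protein-coding transcripts, limma called 30.6% higher and 8.7% lower with DAC. The shares were 6.47% and 2.67% with ATRA, and 32.6% and 14.2% with DAC+ATRA, so 0 of 3 says little by itself. At an unadjusted p under 0.05 there was 1, ERVK3-1-201 with DAC+ATRA (0.46 ± 0.19, adjusted p = 0.0448), which passed without untreated library 1 (0.68, adjusted p = 0.00511). The 95% interval of the difference with DAC was -0.04 to 0.75 for ERVK3-1-201, -0.46 to 0.24 for ERVK3-1-203 and -0.26 to 0.19 for ERVK3-1-204. All 3 intervals lie below the 2.02 of ERV3-1-201. Exons of ERVK3-1-204 share 1937 bases in a single block with an antisense transcript of ENSG00000283103. The libraries were stranded, but the strand setting of the counting is not given in the sources used here, so these reads are uncertain.

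The placental envelope genes were at the limit of detection. ERVW-1-205 had 0 reads in all 3 untreated and all 3 ATRA libraries, 2 reads in each DAC library, and 1, 4 and 1 reads in the DAC+ATRA libraries. These values are at or about the 3 reads that a count of 0 allows, and no fold is given. ERVFRD-1-201 had 10 reads over the 12 libraries, at most 2.16 normalized reads in any of them, ERVMER34-1-202 had 2, ERVW-1-203 had 2 and ZNF117-203 had 1. The remaining 12 models of the 6 symbols had none. Low values say little about syncytin-1 and syncytin-2 themselves, since their coding models had few bases of their own. The syncytin-1 model ERVW-1-201 (chr7:92468381-92471305) had 0 of 2925 exonic bases to itself and the syncytin-2 model ERVFRD-1-201 (chr6:11102489-11111725) had 51 of 3191. ERVMER34-1-202 (chr4:52742553-52751425) had 964, the most of the ERVMER34-1 models, and still had only 2 reads.

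Genes near the members were compared to see whether whole neighbourhoods moved. Within 500 kb of ERV3-1 and ZNF117, 5 other protein-coding genes start, all of the zinc finger family, and only ZNF680 passed the filter. Its log2 fold changes were -0.42 with DAC (limma, adjusted p = 0.0368), -0.04 with ATRA and 0.05 with DAC+ATRA. Around ERVK3-1, 16 of 36 neighbours were tested and 6 of them were higher with DAC (background 30.6%), among them ZNF606 (4.55), ZNF814 (1.47), ZNF417 (0.95), CHMP2A (0.87) and ZSCAN22 (0.49). ZNF606 and ZNF814 reached 10 normalized reads in no untreated or ATRA library and passed the filter through the groups given DAC, so their calls follow from the filter. The 2 tested genes closest to ERVK3-1, ZNF8 and ZSCAN22, had 0.01 and 0.49 with DAC. With ATRA 0 of the 16 were called by limma, with 2 at an unadjusted p under 0.05. That count is near the background of 6.47% higher and 2.67% lower.

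Around ERVW-1, 2 of 7 tested neighbours were higher and 1 lower with DAC, next to 30.6% higher and 8.7% lower over all protein-coding transcripts. LRRD1 had 0 reads in untreated and ATRA libraries and a mean of 10.7 normalized reads with DAC, which let it pass the filter. GATAD1 rose by 0.35, while CDK6, a cyclin-dependent kinase, fell by 0.69 on the log2 scale (limma, adjusted p = 2.29e-06). CDK6 was also lower with ATRA (-0.71, adjusted p = 6.46e-06) and with DAC+ATRA (-1.15, adjusted p = 9.16e-10), and was the 1 of the 7 called with ATRA (background 2.67% lower). Around ERVFRD-1, 1 of 4 tested neighbours was higher and 1 lower with DAC. With DAC+ATRA 2 were higher and 2 lower (background 32.6% higher and 14.2% lower). TMEM170B, 1 of the 4, fell by 0.44 with DAC (limma, adjusted p = 0.0031). ELOVL2, another of the 4, also passed the filter only through the groups given DAC, at means of 0 in untreated, 0.277 in ATRA, 14.3 in DAC and 9.55 in DAC+ATRA libraries. USP46, the sole tested neighbour of ERVMER34-1, differed by 0.34 (adjusted p = 0.190).

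Related gene lists put these values in context. They were assembled with earlier results of these data known, each gene is represented by its most abundant tested protein-coding transcript, and their counts are descriptions beside the same share over all transcripts. Of 26 other envelope or HERV-named genes, 9 were in the table. Among transcripts of any biotype 2 were tested, and the gene outside the protein-coding set was called neither with DAC nor with DAC+ATRA. Among protein-coding transcripts 1 was tested. This was ERVH48-1, which encodes suppressyn, an inhibitor of syncytin-1. It had 0 reads in all untreated and all ATRA libraries, 33.5, 54.6 and 38.8 normalized reads with DAC, and 47.9, 42.1 and 39.5 with DAC+ATRA. It passed the filter only through the 2 groups with reads, so that no test is given for it.

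Of the genes derived from retroviral gag or pol sequence, 12 were tested, and 11 were higher with DAC (background 30.6%). These counts are descriptions only, because 6 of the 12 (ARC, CCDC8, NYNRIN, PNMA5, PNMAL2 and ZCCHC12) reached 10 normalized reads in no untreated or ATRA library and entered through the groups given DAC, next to 10.5% of all tested protein-coding transcripts. With ATRA 0 were higher and 1 was lower (background 2.67% lower, 5 of 12 at an unadjusted p under 0.05), and with DAC+ATRA 8 were higher (background 32.6%). The highest with DAC+ATRA were NYNRIN (7.64), at 0.92 to 1.82 normalized reads in untreated and 386 to 491 in DAC+ATRA libraries, and ARC (5.73), a neuronal gene whose protein forms capsid-like particles. The lowest were PNMA1 (0.28, adjusted p = 0.0357) and ZCCHC5, now named RTL3 (0.09, adjusted p = 0.846). ZCCHC5 had 19.3, 8.19 and 10.2 normalized reads in untreated libraries, 87.6, 146 and 91.6 with DAC, 2.11, 0.91 and 2.50 with ATRA, and 14.5, 15.8 and 8.65 with DAC+ATRA. It was higher by 3.06 with DAC. That is a value without a test, since ZCCHC5 met the minimum of 3 libraries only with libraries given DAC. With ATRA it fell by 2.22 (limma, adjusted p = 0.000123), a direction opposite to that of ERV3-1-201.

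Genes that silence retroviral sequence moved in both directions. Of 19 tested, 6 were higher and 4 lower with DAC (background 30.6% and 8.7%), 1 was higher with ATRA (background 6.47%), and 6 were higher and 5 lower with DAC+ATRA (background 32.6% and 14.2%, median 0.08). The highest with DAC+ATRA were the de novo methyltransferase DNMT3A (1.43, and 1.38 with ATRA alone) and KIAA1551, now RESF1 (1.16). The lowest were HELLS, a chromatin remodeler needed for DNA methylation (-1.09), and CHAF1B, a subunit of chromatin assembly factor 1 (-1.09). TRIM28, the corepressor of KRAB zinc finger proteins, differed by 0.01 with DAC and by -0.29 with DAC+ATRA in its most abundant tested transcript, at 26.3 normalized reads in untreated cells.

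Sensors and effectors of double-stranded RNA, which retroviral transcripts can form, were higher with DAC in 9 of 12 tested genes (background 30.6%, median 0.92 against 0.22 over all transcripts), with ATRA in 4 (background 6.47%, median 0.24) and with DAC+ATRA in 11 (background 32.6%, median 1.95 against 0.20). Of the 12, DDX58 and TLR3 passed the filter only through the groups given DAC. OASL, at 10 or more normalized reads in too few other libraries, also needed those groups to pass. The filter thus decided part of the counts with DAC and DAC+ATRA, which are descriptions only. By edgeR and DESeq2, 7 each were called with DAC, 4 and 3 with ATRA, and 10 each with DAC+ATRA. OAS1 had 23.0, 23.7 and 26.8 normalized reads in untreated libraries and 778, 767 and 895 with DAC+ATRA (5.00, limma, adjusted p = 6.73e-17), and OASL followed (4.28). The lowest of the list were EIF2AK2 (0.59) and MAVS (0.83). Of the syncytin receptors and their regulator GCM1, 0 of 3 tested were called in limma with any treatment (background with DAC+ATRA 32.6% higher and 14.2% lower). With DAC+ATRA 1 of the 3 was at an unadjusted p under 0.05, and edgeR and DESeq2 each called 2 as lower, next to 20.4% and 19.1% of all protein-coding transcripts. SLC1A5 and SLC1A4, the amino acid transporters that syncytin-1 binds, differed by -0.28 and -0.47 with DAC+ATRA, and GCM1 by -0.43.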

How the data were processed

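RNA of U937 cells was sequenced in 12 libraries (4 groups of 3; groups from the sample labels, columns matched to a group and not to a numbered replicate). Per the study's methods and the labels, the authors aligned paired-end, rRNA-depleted, stranded reads to hg38 with STAR, counted them per transcript with HTSeq and divided them by DESeq2 size factors. Tool versions, how HTSeq treated reads on shared exons and which strand option was chosen are not given in the sources used here. The deposited signal values are thus size-factor-normalized reads, and 100% of them came out as whole reads (tolerance 0.1 read) once multiplied by the recovered factors (0.809 to 1.20). Between 36.3% and 42.5% of reads were mitochondrial, and replicate pairs differed by 2.36 to 10.4 chi-square units per degree of freedom, so that none was a duplicate.

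Transcripts were matched to GENCODE release 44 (1 member model was unmatched and had 0 reads). Transcripts with at least 10 normalized reads in at least 3 libraries were tested on log2(value + 1) with limma 3.58.1 under R 4.3.3 (moderated by a robust eBayes with an intensity trend), with 1 mean per group over all 12 libraries and Benjamini-Hochberg adjustment. Recovered reads went into edgeR 4.0.16 (quasi-likelihood, TMM) and DESeq2 1.42.0 as alternatives. On simulated data for DAC against untreated (9016 transcripts, 200 changed), limma recovered 48.0% of changes of log2 size 1 and 83.3% of size 2, with 0 false calls. The simulation started from untreated means and gave all transcripts and groups the same spread beyond counting error. Spread between real libraries varied by group, so these rates need not hold for the data. Bases held by 1 model were counted against same-strand models of the table.

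All 13 transcripts with reads were accounted for, with values per library for those that passed the filter. Neighbours are protein-coding genes starting within 500 kb, alike genes the 5 highest correlations, and from each list the 2 highest and 2 lowest with DAC+ATRA are named; a few others (TRIM28, COL1A1, further neighbours) were named after their values were seen. The members and lists were chosen with earlier results of these data known. Sequences come from RefSeq promoter windows (GRCh38.p14), which matched 5 of the 6 symbols, and from the study's primer list. Some items are not reported here.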

Additional observations from a re-analysis of the deposited data

Results flagged for a closer look

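The effect of ATRA on ERV3-1-201 differed between cells with and without DAC. The difference was -0.92 ± 0.13 (log2, effect of ATRA with DAC minus effect of ATRA without DAC, limma interaction over 9016 transcripts, adjusted p = 0.000166), and it ran from -0.99 to -0.84 over 21 alternatives, all past the threshold. ATRA raised ERV3-1-201 by 1.43 without DAC and by 0.51 with it, in every library of each group. No such difference is seen on the linear scale, where the excess over the sum of both rises was 23.7 ± 248 normalized reads.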

How the results depend on the processing

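Of 1066 alternative values of the members' fold changes, 1047 kept their side of the threshold, 8 lost the call, 11 gained one and 0 called values reversed. The sign differed from the reported one in 19 of the 1047, all of them values not called. ERV3-1-201 ran from 1.80 to 2.09 with DAC, 1.36 to 1.48 with ATRA and 2.37 to 2.58 with DAC+ATRA, and ZNF117-201 from 1.85 to 2.12, 1.30 to 1.49 and 2.51 to 2.71, all past the threshold in 22 alternatives. The ZNF117-201 interaction (-0.88 to -0.67) was past it in 5 of 21. Thus the interaction count of 1 protein-coding member became 2 at an adjusted p under 0.05, with DESeq2, with a pseudocount of 5 and, over single libraries left out, ranged from 1 to 2 (2 without DAC library 4, ATRA library 8 or ATRA library 9). Among the 5 members of other biotypes, the 1 called with ATRA, ERV3-1-202, became 0 with DESeq2, with edgeR (with or without DAC library 6), with a pseudocount of 0.1 and with only the groups compared, and ranged from 0 to 1 with libraries left out (0 without ATRA library 7 or 9). The 0 called between DAC+ATRA and DAC became 1 at an adjusted p under 0.05 and ranged from 0 to 1 with libraries left out (ZNF117-202, without DAC library 5), and the 2 called between DAC+ATRA and ATRA became 1 with a pseudocount of 0.1. Among gag- or pol-derived genes the 1 called with ATRA became 2 with DESeq2, edgeR (with or without DAC library 6), library totals and coding size factors, and ranged from 1 to 2 with libraries left out (2 without ATRA library 7). Among syncytin receptors and GCM1 the 0 called with ATRA ranged from 0 to 1 (1 without ATRA library 8), and the 0 called with DAC+ATRA became 1 at an adjusted p under 0.05 and 2 with DESeq2, edgeR (with or without DAC library 6), library totals, coding size factors and only the groups compared, ranging from 0 to 2 with libraries left out (1 without ATRA library 8, 2 without ATRA library 9). The causes were not tested. The edgeR fit without DAC library 6 and the test within genes were chosen after seeing the data. No paired analysis was possible because the columns carry no replicate number of the labels. Depth limits the short ERV3-1 models in untreated and ATRA cells (5 to 25 reads per group) and the syncytin genes.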
